A study of Mus musculus with 20 samples.

Results

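The genes described here encode the machinery that takes up long-chain fatty acids and oxidises them in mitochondria. They are 31 genes chosen by symbol from knowledge of the pathway, with earlier results of these data known. All 31 were found by name among the 19985 genes of the 24-week table and the 19872 genes of the 2-week table. RNA had been sequenced from the left ventricle of mice with cardiac overexpression of a dominant-negative O-GlcNAcase, called dnOGAh-Tg, and from Control mice. Induction, by doxycycline food, had lasted 2 or 24 weeks. O-GlcNAcase, encoded by Oga, removes a single sugar, O-GlcNAc, from intracellular proteins, and the series title names hypertrophy and mitochondria as the subjects of the study. The 4 groups, dnOGAh-Tg after 24 weeks, Control after 24 weeks, dnOGAh-Tg after 2 weeks and Control after 2 weeks, held 5 libraries each. The strain, sex and age of the mice, the promoter of the transgene and whether Control mice also ate doxycycline were not given in the sources used here. Since nothing in the labels ties each library to an animal of its own, p-values cover only the spread among these libraries.

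The adult heart draws most of its energy from fatty acids. Lipoprotein lipase releases them from circulating triglyceride, membrane proteins and a cytosolic carrier bring them in, and an acyl-CoA synthetase activates them. Carnitine carries the activated chains across the inner mitochondrial membrane. There each turn of beta-oxidation (dehydrogenation, hydration, a second dehydrogenation and thiolysis) shortens them. Electrons of the first dehydrogenation leave through the electron transfer flavoprotein to the respiratory chain. Malonyl-CoA blocks the entry step, so the enzymes that make and destroy it bear on the rate of entry.

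Values are normalized counts, reads per gene that the authors scaled by a single factor for each library. Reads per library ranged from 23953851 to 37844796 in dnOGAh-Tg and from 24240718 to 30610824 in Control at 24 weeks. The 2-week libraries held 24641225 to 50996272 reads in dnOGAh-Tg and 22804712 to 31906006 in Control. Oga, the check of the labels, had 32250.0, 21661, 56078, 52593 and 28853 in dnOGAh-Tg, against 3068, 2933, 3721, 2521 and 3454 in Control at 24 weeks (log2 change 3.53, SE 0.23, limma adjusted p = 1.26e-06). At 2 weeks Oga had 8608, 6406, 56985, 61206 and 42127 in dnOGAh-Tg, against 3983, 2565, 4269, 3852 and 3074 in Control (log2 change 2.79, SE 0.57, limma adjusted p = 0.118). Every dnOGAh-Tg library was above every Control library of its time, but the first 2 dnOGAh-Tg libraries at 2 weeks, whose titles carry the code F11, were far below the other 3, whose titles carry F13 or F14. Whether transgene reads count towards Oga was not stated in the labels. All 8 cardiomyocyte markers examined passed the filter on low values at both times, with a summed level between 1278412 and 2272916 over the 20 libraries.

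After 24 weeks, fatty acid uptake and oxidation genes were lower in dnOGAh-Tg nearly throughout. Of the 31 members, 25 fell, 0 rose and 6 were not called by limma at an adjusted p under 0.05, where 11.1% of all 14676 tested genes were called lower. By the unadjusted p, 28 members were under 0.05 on the lower side and 0 on the higher side, against 2556 (17.4%) and 2565 of all tested genes. The median log2 change, dnOGAh-Tg minus Control, was -0.61 over the members and -0.0046 over all tested genes. In 23 members every dnOGAh-Tg library lay below every Control library, which was so for 8.19% of tested genes, and in 0 members every one lay above, which was so for 8.49%. The members together took 1.66 to 1.85% of the reads of a dnOGAh-Tg library, against 2.29 to 2.7% of a Control library. These are bulk samples, in which fewer cardiomyocytes and less RNA per cardiomyocyte cannot be told apart.

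**Figure D1:**
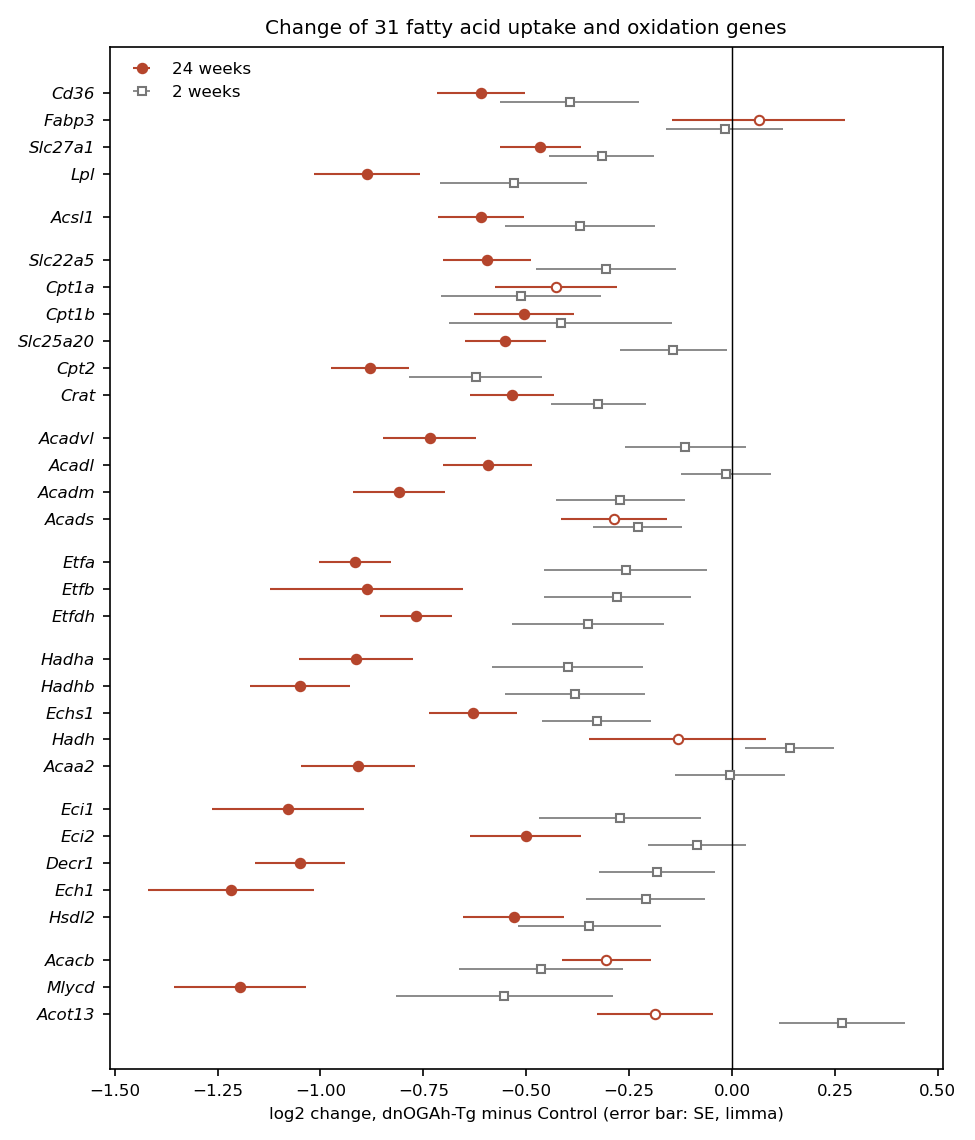
Change of the 31 members, ordered by their step in the pathway (uptake, activation, carnitine shuttle, acyl-CoA dehydrogenases, electron transfer, hydratase to thiolase, auxiliary enzymes, malonyl-CoA control with Acot13). The horizontal axis is the log2 change of dnOGAh-Tg minus Control with its SE, circles for 24 weeks and squares for 2 weeks, filled where limma called the gene at an adjusted p under 0.05. At 24 weeks 25 circles are filled, and at 2 weeks 0 squares are.

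Some markers of cardiomyocytes and of other cell types were called at 24 weeks as well. Of all tested genes 11.1% were called lower and 11.3% higher, and the shares of macrophage and adipocyte markers called were near these. Of the 8 cardiomyocyte markers 3 fell (Ryr2, Myh6 and Tnni3) and 0 rose, with a median log2 change of -0.46, and their summed level ranged from 1278412 to 1767455 in dnOGAh-Tg, against 1702214 to 2272916 in Control. Per 1000 counts of these markers, the 31 members together had 314 ± 28.6 counts in dnOGAh-Tg and 381 ± 23.4 in Control (SD, n = 5 each), with a range of 291 to 362 in dnOGAh-Tg that overlapped the 355 to 405 in Control. Endothelial markers fell in 6 of 8 cases, with a summed level of 18546 to 25111 in dnOGAh-Tg, against 26625 to 32528 in Control. Mural markers ranged from 21428 to 34833 in dnOGAh-Tg, against 42028 to 52863 in Control (3 of 8 fell, 1 rose), and erythroid markers from 12751 to 21496 in dnOGAh-Tg, against 20843 to 36473 in Control (4 of 4 tested fell). Fibroblast markers (2 of 8 rose) ranged from 88859 to 156767 in dnOGAh-Tg, against 80728 to 109651 in Control, and macrophage markers (1 of 8 rose) from 4437 to 7188 in dnOGAh-Tg, against 3219 to 6022 in Control. Atrial markers ranged from 1108 to 8243 in dnOGAh-Tg, with library 4 at the top and the other 4 at 1415 or less, against 482 to 674 in Control (2 of 4 tested rose). Adipocyte markers (1 of 7 tested fell, Fabp4, and 5 of 7 changes were negative) ranged from 10571 to 14633 in dnOGAh-Tg, against 13837 to 20354 in Control. Among them Adipoq had a low mean of 26.4 ± 14.7 in dnOGAh-Tg and 28.6 ± 14.97 in Control (SD, n = 5 each). The part of these shifts in the members' fall was not tested.

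Uptake genes fell at 24 weeks with 1 exception. Lpl encodes lipoprotein lipase (ENSMUSG00000015568, chr8:69333143-69360100 on GRCm39) and had 86307, 92129.8, 84184, 82908 and 87034 in dnOGAh-Tg, against 172281, 163307, 124701, 194789.5 and 152494 in Control. The dnOGAh-Tg libraries lay in a narrow band below the lowest Control library (log2 change -0.89, SE 0.13, limma adjusted p = 0.000389). Cd36, a membrane receptor and translocase for fatty acids, had 43793, 36319.7, 47656, 49513 and 44187 in dnOGAh-Tg, against 68282, 62423, 66719, 66073 and 73275 in Control. It fell without overlap (log2 change -0.61, SE 0.11, limma adjusted p = 0.00134). Slc27a1, a fatty acid transport protein with acyl-CoA synthetase activity, averaged 3205 ± 405 in dnOGAh-Tg and 4405 ± 304 in Control (SD, n = 5 each) and fell too (log2 change -0.47, SE 0.10, limma adjusted p = 0.00423).

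Fabp3, the heart's cytosolic fatty acid binding protein, was the uptake gene that was not called. Its levels were 45541, 63332, 33668, 32888 and 36948 in dnOGAh-Tg, against 29287, 58665, 38075, 33713 and 42816 in Control. The groups overlapped over most of their range and the gene was not called (log2 change 0.06, SE 0.21, limma adjusted p = 0.86), and its sign turned without dnOGAh-Tg library 2 (-0.09) or Control library 1 (-0.04). Per kilobase of exon, Fabp3 had the highest level of the 31 members in both groups, 51611 normalized counts per kilobase in dnOGAh-Tg and 49224 in Control. Exon lengths were taken from GRCm38, an older build than that of the tables, in which 19.6% of the exonic bases of Fabp3 overlap genes of the other strand.

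Acsl1, the main long-chain acyl-CoA synthetase of heart, had 16675, 14729.8, 21170.4, 18605 and 16138 in dnOGAh-Tg, against 27353, 25399.6, 27759, 24791 and 27084 in Control. All dnOGAh-Tg libraries were below all Control libraries and the gene fell (log2 change -0.61, SE 0.10, limma adjusted p = 0.00112). The call ended with quantile normalization (log2 change -0.35, adjusted p = 0.0627).

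**Figure D2:**
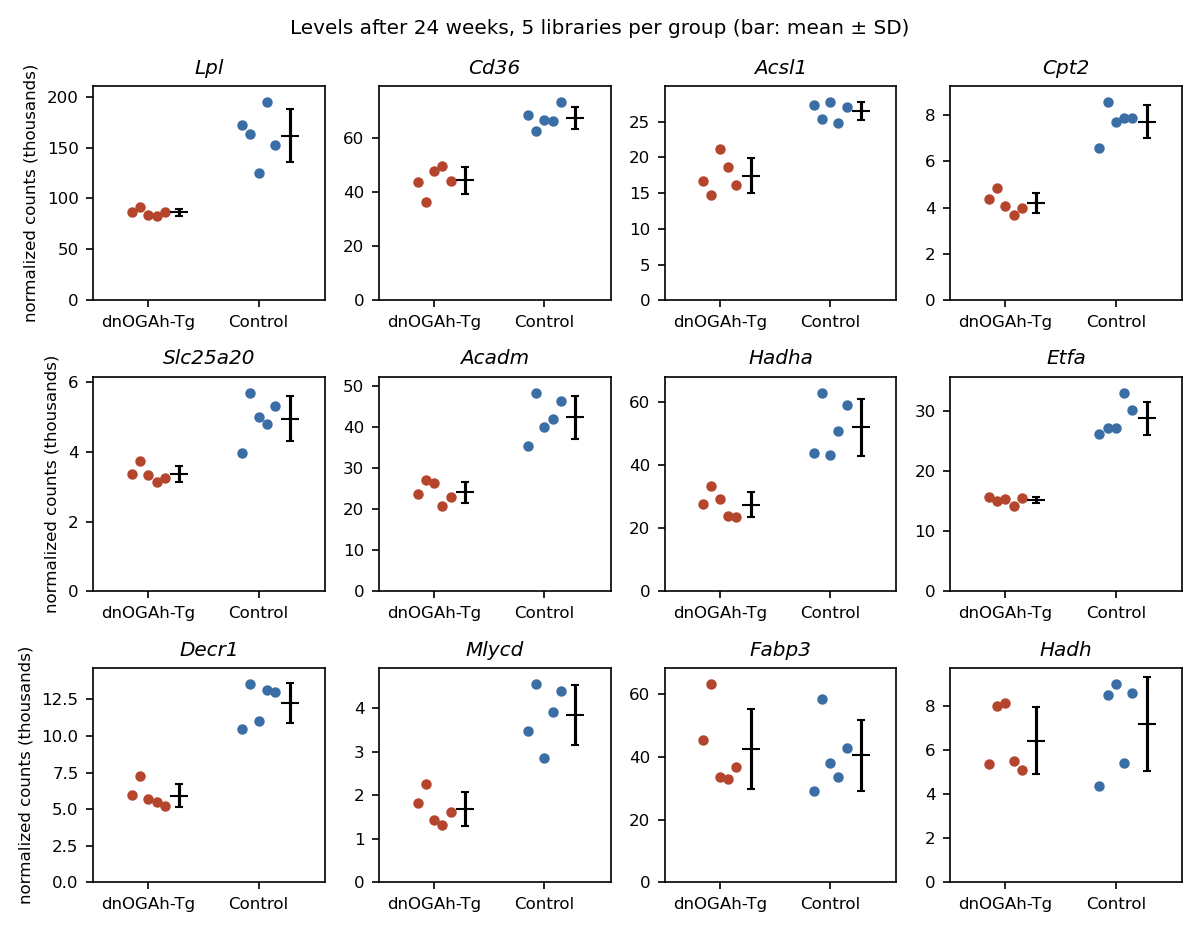
Normalized counts (axis divided by 1000) of 12 members in each of the 5 dnOGAh-Tg and 5 Control libraries at 24 weeks, with the mean and SD as a bar beside the points. In Lpl, Cd36, Acsl1, Cpt2, Slc25a20, Acadm, Hadha, Etfa, Decr1 and Mlycd the dnOGAh-Tg points lie below all Control points, and in Fabp3 and Hadh the groups overlap.

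In the carnitine shuttle 5 of 6 members fell at 24 weeks. Slc22a5, the plasma membrane carnitine transporter, had 443, 431, 520.5, 444 and 357 in dnOGAh-Tg, against 741, 653, 614, 672 and 622 in Control. No dnOGAh-Tg library reached the lowest Control library (log2 change -0.59, SE 0.11, limma adjusted p = 0.00162). Slc25a20, the carnitine-acylcarnitine translocase of the inner membrane, had 3364, 3728, 3327, 3145 and 3238 in dnOGAh-Tg, against 3963, 5691, 4990.4, 4798 and 5305 in Control. It fell without overlap (log2 change -0.55, SE 0.10, limma adjusted p = 0.00164), although Control library 1 stood close to the dnOGAh-Tg range. Cpt2, which rebuilds acyl-CoA inside the matrix (ENSMUSG00000028607, chr4:107761178-107780807 on GRCm39), had 4381, 4839, 4055, 3703 and 3997 in dnOGAh-Tg, against 6567, 8569, 7700.5, 7858 and 7888 in Control. It had the third smallest adjusted p of the 31 members (log2 change -0.88, SE 0.10, limma adjusted p = 4.56e-05). Crat, which moves acetyl groups between CoA and carnitine, averaged 13991 ± 1312 in dnOGAh-Tg and 20300.0 ± 2374 in Control (SD, n = 5 each) and fell (log2 change -0.53, SE 0.10, limma adjusted p = 0.00254).

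The outer-membrane entry step has a muscle form, Cpt1b, and a liver form, Cpt1a, that the heart also makes. Cpt1b (ENSMUSG00000078937, chr15:89300608-89310066 on GRCm39) had 167, 148, 199, 184 and 159 in dnOGAh-Tg, against 259, 259, 268, 213 and 218 in Control. The groups did not overlap and the gene fell (log2 change -0.51, SE 0.12, limma adjusted p = 0.00932), but fitted together with the 2-week libraries it was no longer called (adjusted p = 0.115). These levels are uncertain. On GRCm38, 81.4% of the exonic bases of Cpt1b are shared with the read-through gene Gm44502 of the same strand, and how reads in shared exons were counted was not stated in the labels. Of the 31 members Cpt1b had the lowest level per kilobase of exon in both groups, 50.8 in dnOGAh-Tg and 72.2 in Control. Chkb, its upstream neighbour, had 42.8, 105, 43.2, 31.6 and 40.3 in dnOGAh-Tg, against 36.2, 53.9, 49.9, 45.4 and 31.7 in Control and was not called (log2 change 0.16, SE 0.29, limma adjusted p = 0.733).

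Cpt1a had 622, 718, 713, 1065 and 777 in dnOGAh-Tg, against 1204, 911, 1158, 823 and 1110.4 in Control. The groups overlapped through dnOGAh-Tg library 4, which lay above Control libraries 2 and 4, and the gene was not called (log2 change -0.43, SE 0.15, limma adjusted p = 0.057). It passed with DESeq2 on all 10 libraries (log2 change -0.41, adjusted p = 0.0437), without dnOGAh-Tg library 4 (-0.55, adjusted p = 0.00932) and without Control library 4 (-0.51, adjusted p = 0.0349). Cpt1a is a known target of the nuclear receptor PPAR alpha, which binds repeats of the half-site AGGTCA together with a retinoid X receptor. RefSeq windows of 250 bases before to 50 bases after a start site (GRCm38.p6) were held for 25 members, in 28 windows. The direct repeat of 2 half-sites spaced by 1 base was in 0 of the 28 on either strand, and in 0.0396% of all 32851 windows. The element of the estrogen-related receptors, TNAAGGTCA, was in 0 of the 28 and in 1.28% of all windows. The single half-site AGGTCA, which both longer motifs contain, was in windows of 6 members (Cpt1a, Acadm, Acadvl, Echs1, Cd36 and Acacb) and in 16.3% of all windows. The Cpt1a window (chr19:3323051-3323350, plus strand) is shown because this member was not called while its neighbours in the shuttle were, with the half-site in capitals, here read on the reverse strand 94 bases before the start.
Cpt1a: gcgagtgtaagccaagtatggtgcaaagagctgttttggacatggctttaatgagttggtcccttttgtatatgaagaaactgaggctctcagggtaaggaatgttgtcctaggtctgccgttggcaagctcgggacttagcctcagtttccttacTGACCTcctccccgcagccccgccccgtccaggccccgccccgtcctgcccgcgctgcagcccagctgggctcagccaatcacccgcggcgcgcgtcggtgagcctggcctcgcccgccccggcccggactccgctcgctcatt

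Of the acyl-CoA dehydrogenases, which take the first step of each turn for chains of different length, 3 of 4 fell at 24 weeks. Acadvl, for very long chains, had 24936, 27836, 21596, 21015 and 21569 in dnOGAh-Tg, against 34366, 42429, 33876, 42641 and 41102 in Control. It fell without overlap (log2 change -0.73, SE 0.11, limma adjusted p = 0.000586), with the reservation that 42.85% of its exonic bases on GRCm38 overlap Dvl2 on the other strand and the libraries' strand was not stated. Acadl, for long chains, had 34836, 37621, 33356, 32834 and 28599 in dnOGAh-Tg, against 46587, 54877, 43219, 54013 and 53854 in Control. The lowest Control library still exceeded every dnOGAh-Tg library (log2 change -0.59, SE 0.11, limma adjusted p = 0.0018). Acadm, for medium chains (ENSMUSG00000062908, chr3:153627994-153650269 on GRCm39), had 23648, 27042, 26297, 20733 and 23011 in dnOGAh-Tg, against 35386, 48364, 39992, 41889 and 46296 in Control. Its fall was the largest of the 4 (log2 change -0.81, SE 0.11, limma adjusted p = 0.000275). Acads, for short chains, had 7700.0, 9348, 6891, 5972 and 7279 in dnOGAh-Tg, against 7366, 10912, 8824, 8639 and 9499 in Control. The groups overlapped and it was not called (log2 change -0.29, SE 0.13, limma adjusted p = 0.132), but it passed without dnOGAh-Tg library 2, the highest of its group (log2 change -0.37, adjusted p = 0.0389). The windows of Acadvl (chr11:70015379-70015678, minus strand, half-site 87 bases before the start) and Acadm (chr3:153944594-153944893, minus strand, half-site on the reverse strand 249 bases before the start) are shown as those of the called dehydrogenases in which the half-site, in capitals, was found.
Acadvl: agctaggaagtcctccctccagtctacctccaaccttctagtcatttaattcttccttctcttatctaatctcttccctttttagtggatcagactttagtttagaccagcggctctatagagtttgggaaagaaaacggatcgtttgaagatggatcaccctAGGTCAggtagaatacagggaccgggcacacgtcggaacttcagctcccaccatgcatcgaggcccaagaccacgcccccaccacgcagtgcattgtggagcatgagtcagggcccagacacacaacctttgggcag
Acadm: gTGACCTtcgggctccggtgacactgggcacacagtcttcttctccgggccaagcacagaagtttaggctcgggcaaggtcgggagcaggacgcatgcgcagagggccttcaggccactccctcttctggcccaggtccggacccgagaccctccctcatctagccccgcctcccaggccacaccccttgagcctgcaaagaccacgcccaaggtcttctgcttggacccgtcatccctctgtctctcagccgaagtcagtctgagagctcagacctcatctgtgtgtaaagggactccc

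Electrons from all of these enzymes pass to the electron transfer flavoprotein, whose subunits are Etfa and Etfb, and on to its oxidoreductase Etfdh. All 3 fell at 24 weeks. Etfa (ENSMUSG00000032314, chr9:55361792-55419527 on GRCm39) had 15760.1, 15113, 15362, 14287 and 15594 in dnOGAh-Tg, against 26286, 27158, 27267, 33061 and 30279 in Control. The dnOGAh-Tg libraries differed little from each other and Etfa had the smallest adjusted p of the 31 members (log2 change -0.92, SE 0.09, limma adjusted p = 1.93e-05). Etfdh, an inner-membrane enzyme, had 13475, 14264, 14025, 13712 and 13188 in dnOGAh-Tg, against 20264, 25869, 23627, 22368 and 25185 in Control. It too fell without overlap (log2 change -0.77, SE 0.09, limma adjusted p = 6.36e-05). Etfb averaged 2376 ± 771 in dnOGAh-Tg and 4403 ± 1310.3 in Control (SD, n = 5 each), with groups that overlapped through dnOGAh-Tg library 2, which lay above Control libraries 1 and 3 (log2 change -0.89, SE 0.23, limma adjusted p = 0.0157), and on GRCm38 58.25% of its exonic bases are shared with other annotated genes of the same strand.

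The steps from hydration to thiolysis fell in 4 of 5 members. Hadha, the subunit of the trifunctional protein with hydratase and dehydrogenase activity, had 27737, 33364, 29208, 23897 and 23514 in dnOGAh-Tg, against 43888, 62981, 43145, 50932 and 59223 in Control. No dnOGAh-Tg library reached a Control library (log2 change -0.91, SE 0.14, limma adjusted p = 0.000516). Its partner subunit Hadhb, the long-chain thiolase, averaged 15232 ± 1661 in dnOGAh-Tg and 31676 ± 4899 in Control (SD, n = 5 each) and also fell (log2 change -1.05, SE 0.12, limma adjusted p = 7.43e-05). These genes lie head to head, and their RefSeq starts are 273 bases apart on GRCm38. The Hadhb window (chr5:30155003-30155302, plus strand) is shown because both subunits moved together, and its capitals mark the 228 bases that also lie in the Hadha window. Neither window holds the motifs named above.
Hadhb: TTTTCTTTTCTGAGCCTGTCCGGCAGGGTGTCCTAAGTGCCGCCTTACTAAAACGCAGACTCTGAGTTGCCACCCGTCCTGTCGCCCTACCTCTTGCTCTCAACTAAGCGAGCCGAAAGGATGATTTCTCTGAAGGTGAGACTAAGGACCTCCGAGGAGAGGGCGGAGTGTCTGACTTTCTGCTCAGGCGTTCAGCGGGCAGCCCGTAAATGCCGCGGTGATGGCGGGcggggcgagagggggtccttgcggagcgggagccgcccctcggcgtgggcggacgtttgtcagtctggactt

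Echs1, the short-chain hydratase (log2 change -0.63, SE 0.11, limma adjusted p = 0.00114), and Acaa2, the mitochondrial thiolase for medium chains (log2 change -0.91, SE 0.14, limma adjusted p = 0.000527), fell without overlap as well. Acaa2 averaged 12887 ± 1910.2 in dnOGAh-Tg and 24334 ± 4279.6 in Control (SD, n = 5 each). Hadh, the short-chain hydroxyacyl-CoA dehydrogenase, was the exception, with 5389, 8037, 8157, 5512 and 5113 in dnOGAh-Tg, against 4389, 8514, 9027, 5411 and 8628 in Control. Both groups spread over the same range and Hadh was not called (log2 change -0.13, SE 0.21, limma adjusted p = 0.699).

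Auxiliary enzymes handle unsaturated and otherwise unusual chains, and all 5 fell at 24 weeks. Decr1, the dienoyl-CoA reductase (ENSMUSG00000028223, chr4:15917240-15945507 on GRCm39), had 6002, 7247, 5724, 5465 and 5189 in dnOGAh-Tg, against 10467, 13560.2, 11059, 13176 and 13009.7 in Control. Every dnOGAh-Tg library was well below every Control library (log2 change -1.05, SE 0.11, limma adjusted p = 3.44e-05). Ech1, a dienoyl-CoA isomerase, averaged 13499 ± 3657 in dnOGAh-Tg and 31448 ± 7877 in Control (SD, n = 5 each) and had the most negative change of the 31 members (log2 change -1.22, SE 0.20, limma adjusted p = 0.000948). Eci1, an enoyl-CoA isomerase, averaged 4654 ± 1229 in dnOGAh-Tg and 9781 ± 2169 in Control (SD, n = 5 each) and fell without overlap (log2 change -1.08, SE 0.18, limma adjusted p = 0.00116). Its relative Eci2 averaged 2732 ± 455 in dnOGAh-Tg and 3871 ± 644 in Control (SD, n = 5 each), with groups that overlapped (log2 change -0.50, SE 0.13, limma adjusted p = 0.0172). Hsdl2, a dehydrogenase-like protein of peroxisomes and mitochondria, averaged 4706 ± 613 in dnOGAh-Tg and 6829 ± 1105 in Control (SD, n = 5 each) and fell without overlap (log2 change -0.53, SE 0.12, limma adjusted p = 0.00794).

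Of the enzymes of opposite action on malonyl-CoA, 1 was called and 1 was not. Mlycd, malonyl-CoA decarboxylase, which destroys the inhibitor of the entry step, had 1814, 2267, 1419.6, 1306 and 1609 in dnOGAh-Tg, against 3481, 4551, 2856, 3908 and 4385 in Control. It fell, with all dnOGAh-Tg libraries below all Control libraries (log2 change -1.196, SE 0.16, limma adjusted p = 0.000209). Acacb, the acetyl-CoA carboxylase at the outer mitochondrial membrane, which makes malonyl-CoA, had 6002, 6282, 8283, 7643 and 6518 in dnOGAh-Tg, against 8831, 8677, 9753, 7499 and 8009.7 in Control. The groups overlapped only through dnOGAh-Tg libraries 3 and 4 and Control libraries 4 and 5, and it was not called (log2 change -0.31, SE 0.11, limma adjusted p = 0.0595). Acacb did pass without dnOGAh-Tg library 3 (-0.37, adjusted p = 0.0239) or 4 (-0.34, adjusted p = 0.0497), and with DESeq2 (-0.30, adjusted p = 0.0396). It also passed in limma with a block for the title code (-0.31, adjusted p = 0.0420). The difference between the changes of Mlycd and Acacb was not tested. Acot13, an acyl-CoA thioesterase of mitochondria and cytosol, had 7065, 8065, 5262, 5340.2 and 5861 in dnOGAh-Tg, against 6136, 8343, 5892, 8253 and 7198 in Control and was not called (log2 change -0.19, SE 0.14, limma adjusted p = 0.377), its groups lying over each other.

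The title codes at 24 weeks hold 1 dnOGAh-Tg and 1 Control library each. Between libraries of the same code, dnOGAh-Tg was lower in 27 of 31 members for F17 (median log2 difference -0.58), in 30 for F19 (-0.78), in 31 for F23 (-0.56), in 28 for F24 (-0.71) and in 31 for F25 (-0.81). Between the whole groups 7428 of all 14676 tested genes had a negative change, and all genes were not counted within a code. The largest single drop was that of Ech1 in F24 (-1.72), and the largest single excess that of Fabp3 in F17 (0.64). Set against the Control mean, the median member was at -0.59 to -0.81 in the dnOGAh-Tg libraries and at -0.21 to 0.16 in the Control libraries, so the 2 groups did not overlap in this median. The median of all tested genes stayed between -0.0052 and 0.0116 in all 10 libraries, which the scaling of each library by a single factor largely sets.

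After 2 weeks, no member was called and the libraries disagreed. By limma 0 of 31 members fell and 0 rose, and 0% of all 14584 tested genes were called in either direction. EdgeR called 0 members and DESeq2 called 1, Cpt2 (log2 change -0.59, adjusted p = 0.0259), where DESeq2 called 1.78% of all genes lower and 4.40% higher. Fitted together with the 24-week libraries, Cpt2 (limma adjusted p = 0.0212) and Lpl (adjusted p = 0.0403) were called, with 3.38% of all genes lower and 4.69% higher. By the unadjusted p, 10 members were under 0.05 on the lower side and 0 on the higher side, against 1753 (12.0%) and 1798 of all tested genes. The median change was -0.31 over the members and -0.02 over all genes, and 29 members had a negative change. Cpt2 had the smallest p of the members, with 8074, 8242, 5492, 4852 and 5105 in dnOGAh-Tg, against 11264, 9922, 8986, 8695 and 8984 in Control (log2 change -0.62, SE 0.16, limma adjusted p = 0.118). Lpl came next, with 138789, 126909, 86991, 76099 and 87379.8 in dnOGAh-Tg, against 157109, 130937, 141242, 135839.6 and 162448 in Control (log2 change -0.53, SE 0.18, limma adjusted p = 0.134). Crat, after these, had 20868, 21643, 18784, 17136 and 15547 in dnOGAh-Tg, against 26332, 24451, 21747, 21988 and 22618 in Control (log2 change -0.32, SE 0.12, limma adjusted p = 0.14). In Cpt2 and Crat the groups did not overlap, the only members for which this held, where 1.96% of all tested genes did the same and 1.19% did so upward. In Lpl the F11 dnOGAh-Tg libraries, the first 2 values, lay within or just below the Control range, and the F13 and F14 libraries, the last 3, lay far below it.

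That split by title code ran through the list. Against the Control mean, the median member was at -0.02 and 0.06 in the F11 dnOGAh-Tg libraries, at -0.34 in the F13 library and at -0.47 and -0.69 in the F14 libraries, with Control libraries between -0.11 and 0.14. The members took 2.41 and 2.49% of the reads in the F11 dnOGAh-Tg libraries and 1.83 to 1.99% in the other 3, against 2.31 to 2.56% in Control. Within F11 (2 libraries a group) 17 of 31 members were lower in dnOGAh-Tg, with a median difference of -0.0086. Within F14 (2 dnOGAh-Tg and 3 Control libraries) 29 were lower, with a median of -0.58. Between the whole groups at 2 weeks 7650 of all 14584 tested genes had a negative change, and all genes were not counted within a code. The single F13 library has no Control of its code. Oga was lowest in the same F11 dnOGAh-Tg libraries, and whether its level or the code goes with the members cannot be told apart.

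**Figure D3:**
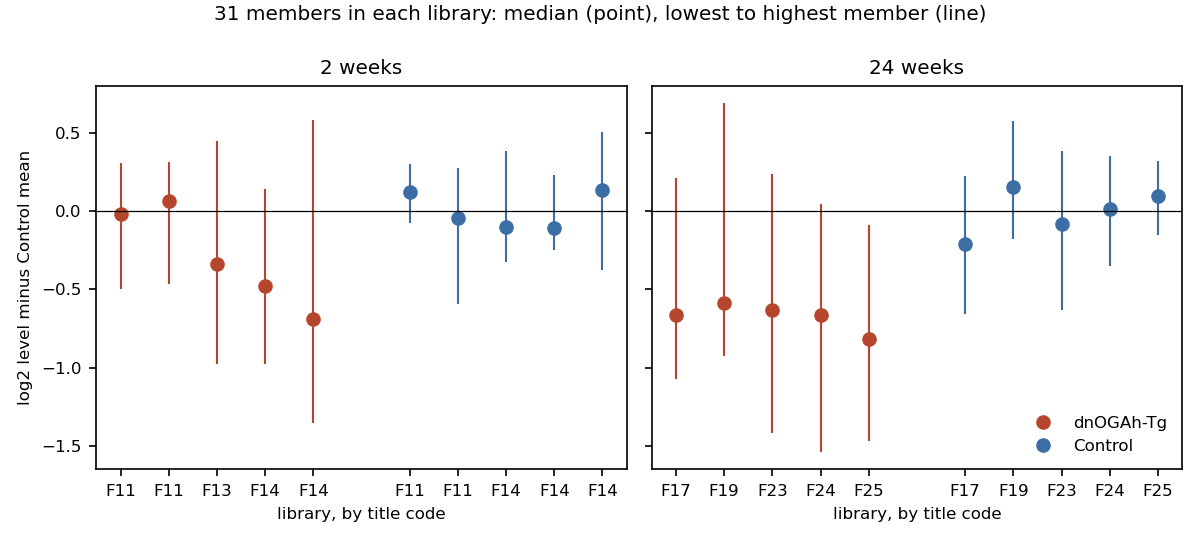
Level of the 31 members in each library relative to the Control mean of its time, on a log2 scale, with libraries named by their title code. Points are the median member and lines run from the lowest to the highest member. At 24 weeks all 5 dnOGAh-Tg medians lie at -0.59 or lower, and at 2 weeks the F11 dnOGAh-Tg libraries lie at -0.02 and 0.06, among the Control libraries.

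Without the F11 dnOGAh-Tg libraries, a choice made with Oga and earlier results known, 20 of 31 members fell at 2 weeks and 0 rose (limma, 3 dnOGAh-Tg against 5 Control libraries). Under the same choice 17.7% of all tested genes were called lower and 16.1% higher, and the members' median change was -0.50. Without all F11 libraries the count was 15, where 11.4% of all tested genes were called lower and 10.9% higher. Per 1000 counts of the cardiomyocyte markers, the members had 264 to 296 counts in the F13 and F14 dnOGAh-Tg libraries and 347 and 353 in the F11 ones, against 320 to 365 in Control. Macrophage markers split the same way, summing to 6794 to 7384 in the F13 and F14 dnOGAh-Tg libraries and to 3931 and 4292 in the F11 ones, against 2908 to 4360 in Control. Mural markers summed to 27078 to 36049.6 in the F13 and F14 dnOGAh-Tg libraries, all below Control, and to 43467 and 37222 in the F11 ones, against 37211 to 46796 in Control. Endothelial markers summed to 20905 to 26835 in the F13 and F14 dnOGAh-Tg libraries and to 30185 and 25974 in the F11 ones, against 26146 to 33122 in Control. Atrial markers summed to 11107 in Control library 2 and to 804 or less in the 5 dnOGAh-Tg libraries. Adipocyte markers summed to 15610 to 23041 in the 5 dnOGAh-Tg libraries, against 10966 to 20782 in Control. The part of these markers was not tested. Mlycd had the most negative change, with 3330.1, 3812, 1601, 1599 and 1385 in dnOGAh-Tg, against 3455, 3718, 2705, 2646 and 3336 in Control over all 10 libraries (-1.04, SE 0.13 and limma adjusted p = 0.000471 without the F11 dnOGAh-Tg libraries). The 3 F13 and F14 libraries were below all other libraries. Cpt2 (-0.89, SE 0.11, adjusted p = 0.000442) and Lpl (-0.80, SE 0.14, adjusted p = 0.002) followed. Cpt1a, the liver form of the entry enzyme (-0.78, SE 0.16, adjusted p = 0.00459), and Acacb (-0.66, SE 0.19, adjusted p = 0.0205) also fell, the 2 members that were called here and not at 24 weeks. At 2 weeks Cpt1a had 1274, 890.1, 602, 767 and 662 in dnOGAh-Tg, against 1132, 1166, 1506, 1161 and 891 in Control, and Acacb had 12299, 8123, 8192, 8510.2 and 5142 in dnOGAh-Tg, against 13642, 9835, 12638, 11959 and 8800.2 in Control. In both genes the F13 and F14 dnOGAh-Tg libraries and the second F11 one were below all Control libraries, the latter only just so in Cpt1a.

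Of the 25 members that fell at 24 weeks, 18 also fell in these 3 libraries at 2 weeks and 7 were not called there. Of all tested genes 11.1% were called lower at 24 weeks and 17.7% at 2 weeks without the F11 dnOGAh-Tg libraries. The share of all genes called lower at both times was not counted. The 7 were Slc25a20, Acadvl, Acadl, Etfb, Acaa2, Eci2 and Ech1. Acadl (-0.06, SE 0.12, adjusted p = 0.728) and Acaa2 (-0.05, SE 0.15, adjusted p = 0.813) were close to 0 in this comparison. Fabp3 (0.01, SE 0.15, adjusted p = 0.953), Hadh (0.22, SE 0.11, adjusted p = 0.143) and Acot13 (0.39, SE 0.16, adjusted p = 0.0765), with Acads (-0.23, SE 0.12, adjusted p = 0.161), were called at neither time. A gene called at one time only is not thereby shown to differ between times, which the next comparison tests.

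**Figure D4:**
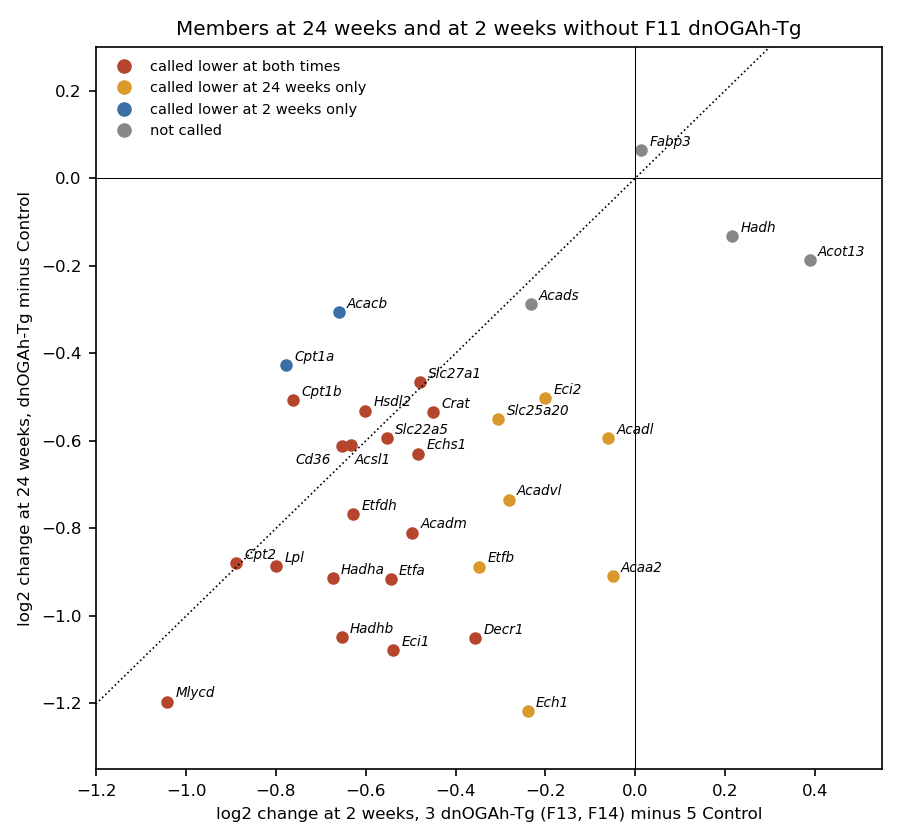
Log2 change of each member at 24 weeks (vertical axis, 5 dnOGAh-Tg minus 5 Control libraries) against that at 2 weeks without the F11 dnOGAh-Tg libraries (horizontal axis, 3 minus 5), coloured by limma calls, with a dotted line of equal change. The 18 members called at both times lie to the lower left, Cpt1a and Acacb lie furthest above the line, and Ech1, Acaa2 and Decr1 lie furthest below it.

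The difference between times was tested as the change at 24 weeks minus that at 2 weeks, in one fit of all 4 groups over 14339 genes. The tables were normalized separately, and a shift of scale between them cancels in this contrast. Of the 31 members 3 had a lower change at 24 weeks, 0 a higher one, where 0.683% of all genes were called lower and 1.07% higher (1.76% in either direction). The median difference was -0.41 over the members and 0.0064 over all genes, with the F11 dnOGAh-Tg libraries included at 2 weeks. The members' median change at 2 weeks was -0.31 with these libraries and -0.50 without them, against -0.61 at 24 weeks. Decr1 had 11281, 13236, 10185, 8211 and 8789 in dnOGAh-Tg, against 12705, 10256, 10689, 10739 and 13797 in Control at 2 weeks, with overlapping groups (log2 change -0.18, SE 0.14), and its change at 24 weeks was lower by 0.87 (difference -0.87, SE 0.18, limma adjusted p = 0.0185). Acaa2 had 22069, 27643, 25049, 19302 and 24631 in dnOGAh-Tg, against 24382, 22762, 20284, 21873 and 29980.1 in Control at 2 weeks, where the groups lay over each other (-0.0046, SE 0.13), with a difference between times of -0.91, SE 0.20 (adjusted p = 0.0221). Acadl had 45522, 48058, 45068, 39115 and 45851 in dnOGAh-Tg, against 49381, 43479, 40593, 42999 and 49548 in Control at 2 weeks (-0.01, SE 0.11), with a difference of -0.58, SE 0.14 (adjusted p = 0.0414). Ech1 had the most negative difference and missed the threshold (-1.01, SE 0.26, adjusted p = 0.0517). The 2-week changes of Acaa2 and Acadl are so close to 0 that their sign turned with TMM rescaling (0.01 and 0.0027).

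These calls were not equally firm. Without the F11 dnOGAh-Tg libraries Decr1 (difference -0.69, limma adjusted p = 0.0393) and Acaa2 (-0.86, adjusted p = 0.0393) stayed called and Acadl did not (-0.53, adjusted p = 0.0656), where 0.872% of genes were called lower and 1.31% higher. Without all F11 libraries 0 members were called (adjusted p = 0.116 for Decr1, 0.120 for Acaa2 and 0.149 for Acadl). The count was 1 without Control library 4 or Control library 5 of 24 weeks, and 6 without Control library 5 of 2 weeks. All genes with a lower change also varied widely, from 26 to 413 with each library left out.

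Other genes of fatty acid metabolism were read from lists outside the 31, against the 11.1% of all tested genes called lower at 24 weeks. Among further genes of mitochondrial fatty acid metabolism 14 of 18 tested fell at 24 weeks and 0 rose, with a median log2 change of -0.64. Acsm5, of the medium-chain acyl-CoA synthetase family (-1.61, SE 0.13), the mitochondrial acylpyruvase Fahd1 (-1.06, SE 0.10), which is no enzyme of beta-oxidation, and the carrier Ucp3 (-2.09, SE 0.24) had the smallest p. Among further genes of uptake and lipid handling 8 of 16 fell and 0 rose (median -0.49). The triglyceride lipases Lipe (-0.73, SE 0.10) and Pnpla2 (-0.79, SE 0.14) and the lipoprotein receptor Vldlr (-1.003, SE 0.16) led that list. Further activation and thioesterase genes fell in 6 of 15 cases (median -0.18), with the mitochondrial acetyl-CoA synthetase Acss1 at -1.09, SE 0.10, Acsl6 at -0.63, SE 0.12 and the thioesterase Acot2 at -0.71, SE 0.14.

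Peroxisomal oxidation, which shortens chains outside mitochondria, fell in 7 of 20 genes and rose in 0 (median -0.17), led by Phyh (-0.63, SE 0.10), Amacr (-0.67, SE 0.12) and Ehhadh (-0.84, SE 0.15). Carnitine synthesis and further carriers held 1 of the 2 rises over all these lists. Slc22a4, a membrane transporter of ergothioneine that also carries carnitine, rose (1.22, SE 0.16), averaging 299 ± 63.0 counts in dnOGAh-Tg and 127 ± 20.6 in Control (SD, n = 5 each), where 11.3% of all genes were called higher. It stands beside the fall of the main carnitine transporter Slc22a5 given above. Aldh9a1, an enzyme of carnitine synthesis (-0.64, SE 0.10), and Slc16a9 (-0.44, SE 0.15) fell, 2 of 6 tested. Of 12 genes of malonyl-CoA and AMP kinase control 2 fell, a share near that of all genes, namely the kinase subunit Prkab1 (-0.56, SE 0.10) and Mid1ip1 (-0.65, SE 0.18), which promotes acetyl-CoA carboxylase activity. The catalytic subunit Prkaa2 was at -0.54, SE 0.18, just above the threshold and not called (adjusted p = 0.0504). Acaca, the carboxylase of fatty acid synthesis, was at -0.13, SE 0.12 and not called. Among 15 transcription regulators of the pathway 6 fell and 1 rose (median -0.34), namely Esrrb (0.35, SE 0.09) upward and Ppargc1a (-0.87, SE 0.13), Rxrg (-0.73, SE 0.11), Lpin1 (-0.55, SE 0.11), Rxra (-0.27, SE 0.08), Ppargc1b (-0.43, SE 0.14) and Pparg (-0.37, SE 0.12) downward. At 2 weeks 0 genes of these lists were called by limma, as was so for all tested genes.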

How the data were processed

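The authors deposited one table of normalized counts per time, a signal made by scaling read counts by a single factor for each library. Named in the submitters' processing notes are the build GRCm39, STAR 2.7.3a, DESeq2, R 4.0.3, cutadapt 2.6 and Trim Galore 0.6.6. The read counter, annotation release and strandedness were not given in the sources used here. Dividing each column by its step gave whole reads for 100% of its nonzero values, within 0.01, treating alike 2 columns whose step lies within 1% of 1. On these reads edgeR called 1573 genes lower and 1680 higher at 24 weeks, against 1634 and 1662 by limma on the deposited signal.

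Within each table, the log2 of each value plus 1 was taken, and genes reaching 10 normalized counts in 5 or more of 10 libraries were tested, as all 31 members were. A fold change on the scale of log2 of the value plus 1 understates changes of low genes. Groups were compared by two-sided limma-trend tests (R 4.3.3 with limma 3.58.1), and p-values were adjusted over all tested genes by the Benjamini-Hochberg method. Alternatives were other pseudocounts, filters and scalings, edgeR 4.0.16, DESeq2 1.42.0, blocks and left-out libraries. The procedure was also run on simulated data with planted changes and no split by title code. Its outcome is not given here and does not bear on the F11 split. Members and lists were chosen with earlier results of these data known. Every member is named, and values in every library are given for 18 members picked by role, for those not called lower at 24 weeks, and for those with the smallest p at 2 weeks and between times. Of each further list the 3 genes with the smallest p at 24 weeks and any that rose are named. Others named, such as Acaca, Rxra, Ppargc1b and Pparg, and Mlycd, Cpt1a and Acacb at 2 weeks, were chosen after their values were seen. Promoter windows came from RefSeq on GRCm38.p6, and exon lengths and overlaps from GENCODE M21 on GRCm38, joined by gene identifier for all 31 members.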

Additional observations from a re-analysis of the deposited data

Results flagged for a closer look

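Of 124 sets of 5 libraries (31 members in 4 groups), 2 had a library far from the other 4, where chance gives about 1 set in 20. Control library 5 of 2 weeks was the highest of its group in both. Its Etfa level was 38139 against 24149 to 27141 in the other 4, and its Acot13 level was 8662 against 5451 to 6114.

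The change of 3 members differed between times by the test of the difference itself. The change at 24 weeks minus that at 2 weeks was -0.87 for Decr1, -0.91 for Acaa2 and -0.58 for Acadl, and their dependence on the F11 libraries is given with the comparison.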

How the results depend on the processing

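At 24 weeks the count of members that fell was 24 to 27 under all alternatives, 25 to 27 with each library left out, and 0 rose under any. The median change of -0.61 moved by more than the spread of the dnOGAh-Tg libraries only with quantile normalization (-0.52), and lay between -0.66 and -0.60 with each library left out. With each member counted anew in each setting, 2 calls at 24 weeks ended and 8 were gained, the gains being of Cpt1a, Acacb and Acads. Fabp3 turned sign without Control library 1 (-0.04) or dnOGAh-Tg library 2, over a range of -0.091 to 0.21 with each library left out. No scaling moved the median of all genes by 0.1, but each brings the libraries to a common level, so this does not test the scaling.

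At 2 weeks the members that fell numbered 1 with DESeq2, 1 with a replicate block, 2 with all 20 libraries in one fit, 20 without the F11 dnOGAh-Tg libraries, 15 without all F11 libraries and 0 to 8 with each library left out, 8 being without dnOGAh-Tg library 1. All genes called lower and higher at 2 weeks numbered 249 and 616 with DESeq2, 39 and 202 with a replicate block, 485 and 672 in one fit, 2578 and 2351 without the F11 dnOGAh-Tg libraries, 1656 and 1585 without all F11 libraries, 0 to 1720 lower and 0 to 1646 higher with each library left out. Changes of sign at 2 weeks were confined to 3 members near 0. Fabp3 turned with quantile normalization (0.028), edgeR (0.0068), without the F11 dnOGAh-Tg libraries (0.014) and without all F11 libraries (0.067), and ranged from -0.075 to 0.051 with each library left out. Acadl turned with quantile normalization (0.065), TMM rescaling (0.0027) and edgeR (0.0014), and ranged from -0.052 to 0.033 with each library left out. Acaa2 turned with quantile normalization (0.030), TMM rescaling (0.012) and edgeR (0.0095), and ranged from -0.062 to 0.081 with each library left out.

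Between times the members with a lower change numbered 6 with DESeq2, 0 without all F11 libraries and 1 to 6 with each library left out. All genes with a lower change numbered 218 with DESeq2, 222 with a replicate block, 5 without all F11 libraries and 26 to 413 with each library left out, and those with a higher change numbered 315 with DESeq2, 29 without all F11 libraries and 73 to 270 with each left out. For results that moved or ended, the cause was not tested.

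The main fits did not pair libraries by replicate number, since the labels do not say what the title code marks. Deviations of same-numbered libraries correlated at -0.15 to 0.52 over the 5 pairs at 24 weeks, where the number goes with the title code, and at -0.21 to 0.38 at 2 weeks, and only 2 of 5 dnOGAh-Tg libraries at 24 weeks correlated best with their own number. With the replicate block 26 members fell at 24 weeks, with Acacb gained (-0.31, adjusted p = 0.0420), 1 at 2 weeks, Cpt2 (adjusted p = 0.0400), and 3 had a lower change between times, with Ech1 gained (adjusted p = 0.0216) and Acadl lost (adjusted p = 0.0558). At 24 weeks the block for the title code is the same fit, and it called 2002 of all tested genes lower and 1919 higher. Without the block these counts were 1634 and 1662. Correlations over 5 pairs cannot decide whether libraries of a code belong together. Every member passed the filter on low values at both times, although Cpt1b had only 78 reads in dnOGAh-Tg library 5 of 2 weeks. The effect of depth was not tested.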
